A study of Mus musculus with 37 samples.

Results

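Interferons are secreted proteins that bind cell surface receptors and act through Janus kinases and STAT transcription factors. Type I interferons lead to a complex with STAT2 and IRF9 that binds a DNA element called the interferon-stimulated response element (ISRE), and type II interferon acts mainly through a second element, GAS. The genes they switch on encode sensors of viral RNA, antiviral enzymes and GTPases, brakes on the signal itself, and the machinery that cuts and loads peptides for antigen presentation. In the mammary gland such genes can be expressed by epithelium, fat, vessels and resident immune cells, and total RNA of the gland mixes them all.

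The interferon-induced genes described here are a list of 35, given by name and with no threshold on their values, but drawn up with earlier results of these arrays known. Their counts are therefore not independent evidence of a direction. A gene was measured where a probe set, the group of probes that reads 1 transcript, was annotated to its symbol alone. This held for 31 of the 35, among 19937 genes so measured in the whole series, and all 31 passed the filter on low values that kept 16865 genes for testing. The ubiquitin-like modifier Isg15 and the GTPases Gbp2 and Igtp are read by probe sets that also carry the symbol of a related gene. Ifi44 was not matched to any probe set. These 4 genes have no value of their own. Mx2 was above the filter level, a log2 value of 4.96, in 27 of the 37 arrays, and each other measured gene was above it in every array.

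The study compared mammary glands of female mice with and without PTP1B, a tyrosine phosphatase whose gene is Ptpn1 and which is known to dephosphorylate the insulin receptor and the Janus kinases JAK2 and TYK2. All mice were on the FVB background, with the null allele crossed into it for at least 7 generations. The wild-type (WT, PTP1B +/+) and knockout (KO, PTP1B -/-) groups thus share that background, and the knockout is present in every cell of the animal. Whether sequence near Ptpn1 still differs between the groups was not tested. Glands were taken from nulliparous females in oestrus (P0) and at day 3, 7, 10 and 15 of pregnancy (P3, P7, P10 and P15) after mating at 12 weeks of age. There were 4 WT and 4 KO arrays at P0, 3 and 3 at P3, 4 and 5 at P7, 3 and 3 at P10, and 4 and 4 at P15. Values are log2 intensities, a difference of 1 being a doubling, and "±" gives the SD over the arrays of a group with those numbers. Nothing in the labels says that replicates came from separate animals, so p-values measure the spread between arrays, which may in part be technical.

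Of the 35 listed genes 26 have a promoter window in RefSeq (build GRCm38.p6, the C57BL/6J reference, not the FVB strain of these mice), from 250 bases before to 50 bases after the start site. An ISRE was searched on both strands as GAAANNGAAA, which reads TTTCNNTTTC on the other strand, and overlapping matches were each counted. It was found for 14 of the 26 listed genes (53.8%), against 1079 of 27025 genes of the whole table (3.99%). Isg15, which has no value of its own here, had 3 matches. Of the 31 measured genes 22 had a window. Oas1b, Oas2, Usp18, Rtp4, Mx1, Mx2, Dhx58, Ifi27l2a and Parp14 had none and were not searched. The 6 genes with 2 matches each are shown because no other measured gene with a window had as many. All 6 later passed the test for a genotype difference averaged over stages. So did 8 of the 11 measured genes with any match and 8 of the 11 without. Of the 6 only Oas1a also passed in both fits described below that handle cell content or doubtful arrays otherwise. Each line runs 5′ to 3′ along the gene's strand, from 30 bases before the first match to 30 after the last or to the start site, and capitals mark the matches.
Ifit3 (chr19:34583343-34583446, plus strand): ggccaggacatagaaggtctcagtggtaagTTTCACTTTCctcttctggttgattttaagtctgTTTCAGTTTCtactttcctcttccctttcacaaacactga
Ifit1 (chr19:34640755-34640843, plus strand): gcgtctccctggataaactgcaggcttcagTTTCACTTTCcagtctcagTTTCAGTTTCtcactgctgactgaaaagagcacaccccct
Bst2 (chr8:71537557-71537632, minus strand): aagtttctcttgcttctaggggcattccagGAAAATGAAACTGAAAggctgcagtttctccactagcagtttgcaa
Gbp3 (chr3:142559969-142560043, plus strand): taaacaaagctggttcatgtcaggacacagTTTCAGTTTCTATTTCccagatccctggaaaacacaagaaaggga
Irgm1 (chr11:48871421-48871480, minus strand): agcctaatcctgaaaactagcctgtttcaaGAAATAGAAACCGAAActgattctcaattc
Oas1a (chr5:120907526-120907575, minus strand): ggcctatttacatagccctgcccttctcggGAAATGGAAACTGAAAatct
In Bst2, Gbp3, Irgm1 and Oas1a the 2 matches overlap in a single run of 16 bases, whereas in Ifit1 and Ifit3 they are separate. The first match begins 156 bases before the start site in Ifit3, 130 in Bst2, 104 in Ifit1, 45 in Gbp3, 30 in Irgm1 and 20 in Oas1a. The GAS letters TTCNNNGAA, which read the same on the other strand, were found for 7 of the 26 listed genes (26.9%), against 9.55% of all genes, and some GAS matches can overlap an ISRE. A match describes letters in a window and does not show that a factor was bound there.

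The target of the knockout was checked first. Ptpn1 read 7.90 to 9.06 in the 18 WT arrays and 5.36 to 6.49 in 18 of the 19 KO arrays, but 8.68 in the array labelled KO P15 replicate 3, which lies within the WT range. The tissue markers were present throughout, with the luminal keratin Krt8 at 11.08 to 12.49, the fat hormone Adipoq at 10.89 to 12.66 and the casein Csn2 at 10.03 to 13.57. Other arrays stood apart in cell content. A B and T lymphocyte score, the mean of 15 marker genes after each gene's average was subtracted, was 3.76 and 3.77 in KO P10 replicates 2 and 3 and 1.03 in WT P7 replicate 1, and at most 0.48 in every other array. A skeletal muscle score was 5.26 in WT P0 replicate 4, 5.60 in KO P3 replicate 1 and 2.61 in KO P7 replicate 3. Together with the array labelled KO P15 replicate 3 these are called the 7 arrays in doubt, and results are given with and without them. In whole-gland RNA more cells of a type and more RNA per cell cannot be told apart.

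Averaged over the 5 stages, the KO mean was above the WT mean for all 31 interferon-induced genes. Of these, 22 passed the test and were higher in KO, none passed as lower, and 29 had an unadjusted p under 0.05. Over all genes tested 1.30% were called higher. The median difference of the 31 genes was 0.45 on the log2 scale, where that of all genes was -0.01, and single genes ran from 0.18 for Lgals3bp to 0.81 for Oas2. The KO mean was above the WT mean at all 5 stages for 29 of the 31 genes, which held for 2.57% of all genes tested. Rsad2 and Lgals3bp were the exceptions, each below WT at P15 alone. Of 155 differences, 1 for each gene and stage, 153 were above 0.

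The count changed when arrays or cell content were handled otherwise. Leaving out the 7 arrays in doubt gave 11 called genes, all among the 22, with a median difference of 0.40. With the B and T lymphocyte score as a covariate 7 were called, also all among the 22, with a median of 0.32. Calls over all 16865 genes tested, higher or lower, fell under both fits as well, and with the covariate went from 410 to 62. The 6 genes called under each of these fits were Irf7, Oas1a, Oas1b, Oas2, Psmb8 and Rtp4. Of the other 16 calls, 10 were lost under both fits (Stat2, Ifih1, Usp18, Ifit1, Ifit3, Mx2, Bst2, Irgm1, Psmb9 and Xaf1), 5 with the covariate alone (Irf9, Dhx58, Oasl2, Gbp3 and Tap1) and 1 without the arrays in doubt alone (Ifi35). Leaving out KO P10 replicate 2 alone left 14 calls, and leaving out KO P10 replicate 1 alone gave 27. With array weights, which let arrays count unequally in the fit, 28 were called. Calls over all genes tested then rose from 410 to 3091. Markers of natural killer and cytotoxic lymphocytes moved in the same direction as the interferon-induced genes. All 7 of those tested were higher in KO averaged over stages, among them the natural killer receptor Ncr1 at 0.45 (SE 0.10, adjusted p = 0.0158) and the cytotoxic granule proteases Gzma at 0.62 (SE 0.10, adjusted p = 0.00136) and Gzmb at 0.81 (SE 0.12, adjusted p = 0.000702). An eighth, Klrb1c, stayed below the filter level in every array (3.38 to 3.88). The part of these cells in the interferon-induced difference was not tested.

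**Figure D1:**
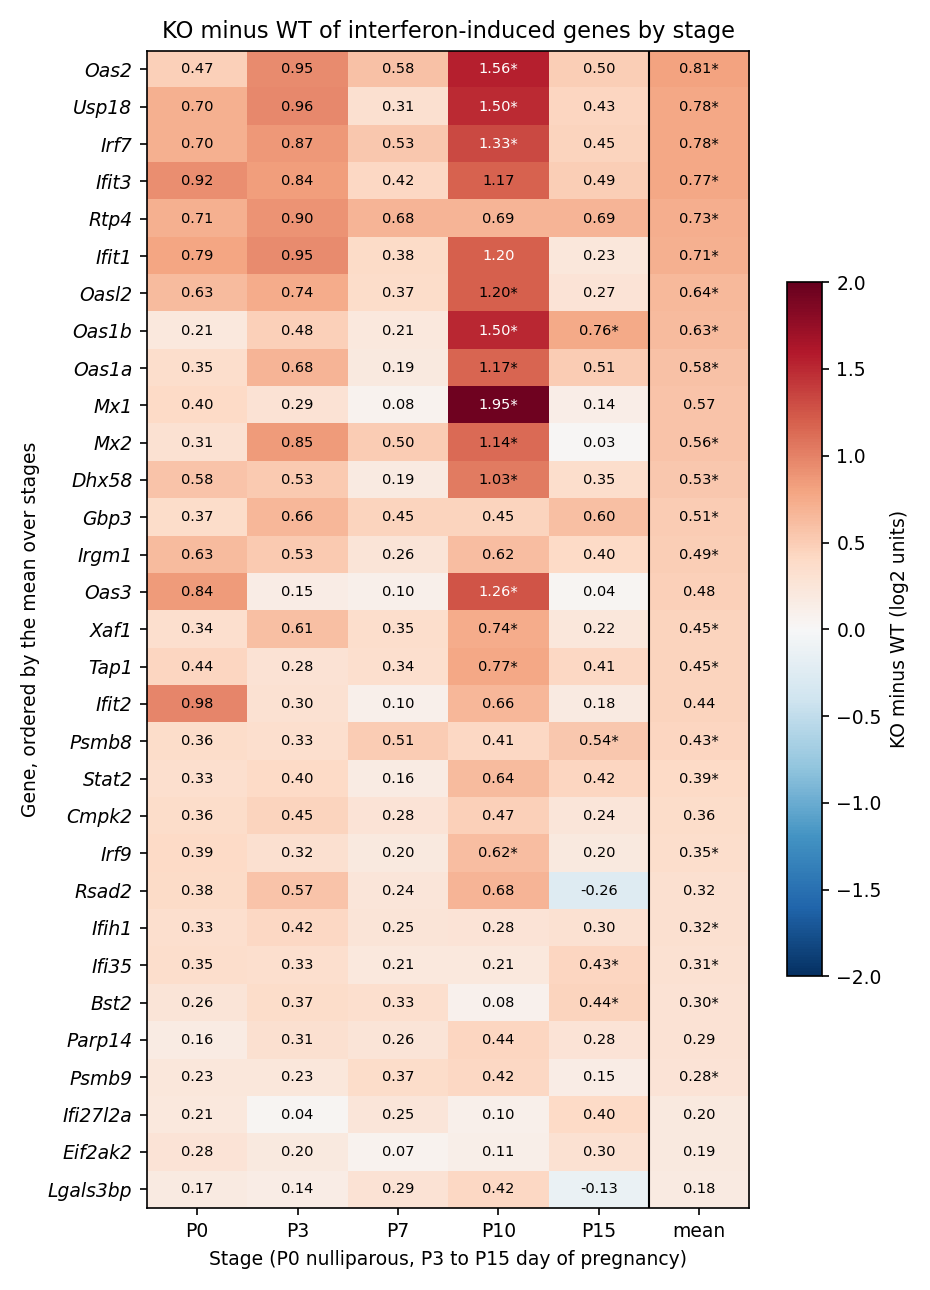
KO minus WT in log2 units for each of the 31 measured interferon-induced genes (rows) at each stage and as the mean over stages (columns), with colour and number giving the difference and an asterisk an adjusted p under 0.05. Nearly all cells are above 0, and the P10 column holds 13 asterisks and the deepest colours, up to 1.95 for Mx1.

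The transcription factors of the pathway were all higher in KO. Irf7, the master regulator of interferon gene transcription and itself strongly induced, was 0.78 (SE 0.15, adjusted p = 0.00552) above WT averaged over stages, which is 1.71-fold. At P0 the KO arrays read 10.29, 9.30, 9.68 and 9.18, against 9.31, 7.93, 9.55 and 8.86 in WT. At P3 the KO arrays read 7.87, 8.07 and 8.99, against 7.44, 7.83 and 7.03 in WT. At P7 the KO arrays read 8.31, 8.64, 8.83, 8.58 and 8.49, against 8.65, 7.85, 7.65 and 8.0 in WT. At P3 the lowest KO array was above the highest WT array, while at P0 and P7 the groups overlapped through WT replicates that read high. At P10 the KO arrays read 9.16, 10.55 and 9.47, against 8.57, 8.10 and 8.53 in WT. At P15 the KO arrays read 8.10, 8.68, 7.44 and 8.10, against 7.43, 7.82, 7.70 and 7.58 in WT. All 3 KO arrays at P10 lay above every WT array of that stage, and at P15 the low KO array was the one labelled KO P15 replicate 3. Irf7 was above the WT median of its stage in 18 of 19 KO arrays. Without the arrays in doubt the difference averaged over stages was 0.78 (adjusted p = 0.023). Stat2 and Irf9, which encode parts of the ISRE-binding complex, were 0.39 (SE 0.09, adjusted p = 0.0252) and 0.35 (SE 0.07, adjusted p = 0.012) higher. Stat2 was no longer called once the arrays in doubt were left out, at 0.35 (adjusted p = 0.104).

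Both RNA sensors of the list passed the test averaged over stages. Dhx58 encodes LGP2, a helicase that tunes the other cytoplasmic RNA sensors, and was 0.53 (SE 0.11, adjusted p = 0.0123) higher in KO. Its KO means were 7.98 ± 0.54 (P0), 7.41 ± 0.52 (P3), 7.16 ± 0.23 (P7), 8.35 ± 0.72 (P10) and 7.08 ± 0.22 (P15). Its WT means were 7.40 ± 0.22 (P0), 6.88 ± 0.21 (P3), 6.97 ± 0.34 (P7), 7.31 ± 0.20 (P10) and 6.74 ± 0.14 (P15). The KO mean of Dhx58 at P10 was the highest of its 10 group means and had the widest SD. With the lymphocyte covariate Dhx58 was no longer called, at 0.41 (adjusted p = 0.0768). Ifih1, which encodes the sensor MDA5, was 0.32 (SE 0.09, adjusted p = 0.0444) higher, and this call held in 15 of 37 fits that left out 1 array, so it rests near the threshold.

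The oligoadenylate synthetases make a small nucleotide messenger that activates RNase L when viral RNA is present. Of 5 measured members 4 were higher in KO averaged over stages, and Oas2 had the largest difference of the whole list, 0.81 (SE 0.14, adjusted p = 0.0034) or 1.75-fold. The P0 arrays read 8.69, 8.53, 8.32 and 7.69 in KO and 8.04, 7.59, 8.30 and 7.40 in WT. The P3 arrays read 7.72, 8.30 and 8.82 in KO and 7.39, 7.13 and 7.50 in WT. The P7 arrays read 8.01, 7.57, 8.52, 8.12 and 8.37 in KO and 8.02, 7.31, 7.20 and 7.63 in WT. Oas2 was separated between the groups at P3 and overlapped at P0 and P7. The P10 arrays read 8.60, 10.36 and 8.90 in KO and 7.79, 7.77 and 7.62 in WT. The P15 arrays read 7.85, 8.12, 7.09 and 7.72 in KO and 6.89, 7.16, 7.72 and 7.03 in WT. At P10 the KO arrays were again all above the WT arrays, and KO replicate 2 was far above the other 2. At P15 the array labelled KO P15 replicate 3 lay among the WT values. Leaving out the arrays in doubt gave a difference of 0.75 (adjusted p = 0.00257) averaged over stages.

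Oas1b is the family member known in mice for resistance to flaviviruses, and it was 0.63 (SE 0.12, adjusted p = 0.00401) higher in KO. Group means in KO were 6.57 ± 0.38 (P0), 6.81 ± 0.40 (P3), 6.73 ± 0.35 (P7), 8.14 ± 0.77 (P10) and 6.96 ± 0.38 (P15). Its WT means were 6.36 ± 0.14 (P0), 6.33 ± 0.17 (P3), 6.52 ± 0.27 (P7), 6.64 ± 0.21 (P10) and 6.20 ± 0.31 (P15). The difference of Oas1b was 1.50 (SE 0.28, adjusted p = 0.000759) at P10 beside 0.21 at P0, and the test for unequal differences between stages gave an adjusted p of 0.0523. Oas1a was 0.58 (SE 0.11, adjusted p = 0.00415) and Oasl2, which has a synthetase-like fold, 0.64 (SE 0.14, adjusted p = 0.0146) higher. Oas3 did not pass at 0.48 (SE 0.14, adjusted p = 0.063), and its differences at P0 and P10, 0.84 and 1.26, stood beside 0.15, 0.10 and 0.04 at P3, P7 and P15. Eif2ak2 encodes PKR, a kinase that stops translation on binding viral RNA, and did not pass at 0.19 (SE 0.06, adjusted p = 0.0855). Its KO means were 8.41 ± 0.31 (P0), 8.14 ± 0.24 (P3), 8.30 ± 0.05 (P7), 8.45 ± 0.27 (P10) and 8.50 ± 0.14 (P15), and its WT means 8.13 ± 0.10 (P0), 7.95 ± 0.17 (P3), 8.23 ± 0.16 (P7), 8.34 ± 0.10 (P10) and 8.20 ± 0.23 (P15). These means differ little in size at any stage, although 18 of 19 KO arrays were above the WT median of their stage.

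Usp18, the protease that removes ISG15 from proteins and blocks signalling at the type I receptor, was 0.78 (SE 0.16, adjusted p = 0.01) higher in KO, or 1.72-fold. Readings at P0 were 10.30, 9.21, 9.17 and 8.63 in KO and 8.42, 8.31, 9.09 and 8.66 in WT. Readings at P3 were 8.04, 8.25 and 9.59 in KO and 7.77, 8.05 and 7.19 in WT. Readings at P7 were 7.91, 7.91, 8.75, 8.48 and 8.33 in KO and 8.65, 7.63, 7.75 and 7.84 in WT. The highest Usp18 reading among the WT P7 arrays was replicate 1, the array with lymphocyte markers. Readings at P10 were 8.96, 10.74 and 9.83 in KO and 8.32, 8.04 and 8.67 in WT. Readings at P15 were 7.73, 8.28, 7.44 and 7.72 in KO and 7.21, 7.61, 7.48 and 7.16 in WT. All 19 KO arrays were above the WT median of their stage. The call was nevertheless lost without the arrays in doubt, where the difference was 0.71 (adjusted p = 0.0532), and with the lymphocyte covariate, where it was 0.59 (adjusted p = 0.0633).

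The IFIT proteins bind foreign RNA and keep it from being translated. Ifit1 and Ifit3 were higher in KO averaged over stages, by 0.71 (SE 0.19, adjusted p = 0.0398) and 0.77 (SE 0.20, adjusted p = 0.0356), and Ifit2 did not pass at 0.44 (SE 0.15, adjusted p = 0.0944). The readings that follow are those of Ifit3. In KO the P0 readings were 10.35, 9.19, 8.90 and 8.13, beside 8.27, 6.84, 9.06 and 8.70 in WT. In KO the P3 readings were 8.28, 7.84 and 8.85, beside 7.91, 7.80 and 6.74 in WT. The WT P0 readings of Ifit3 spanned over 2 log2 units, the widest spread of any member in a WT group. In KO the P7 readings were 8.17, 8.66, 8.56, 8.26 and 7.91, beside 8.67, 7.44, 7.51 and 7.96 in WT. In KO the P10 readings were 8.88, 10.52 and 8.92, beside 8.25, 7.88 and 8.68 in WT. In KO the P15 readings were 7.18, 7.51, 7.24 and 7.05, beside 6.54, 6.96, 7.26 and 6.26 in WT. At P10 all KO arrays were above all WT arrays, and replicate 2 again led. Neither Ifit1 nor Ifit3 kept its call without the arrays in doubt, with differences of 0.68 (adjusted p = 0.128) and 0.73 (adjusted p = 0.162).

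**Figure D2:**
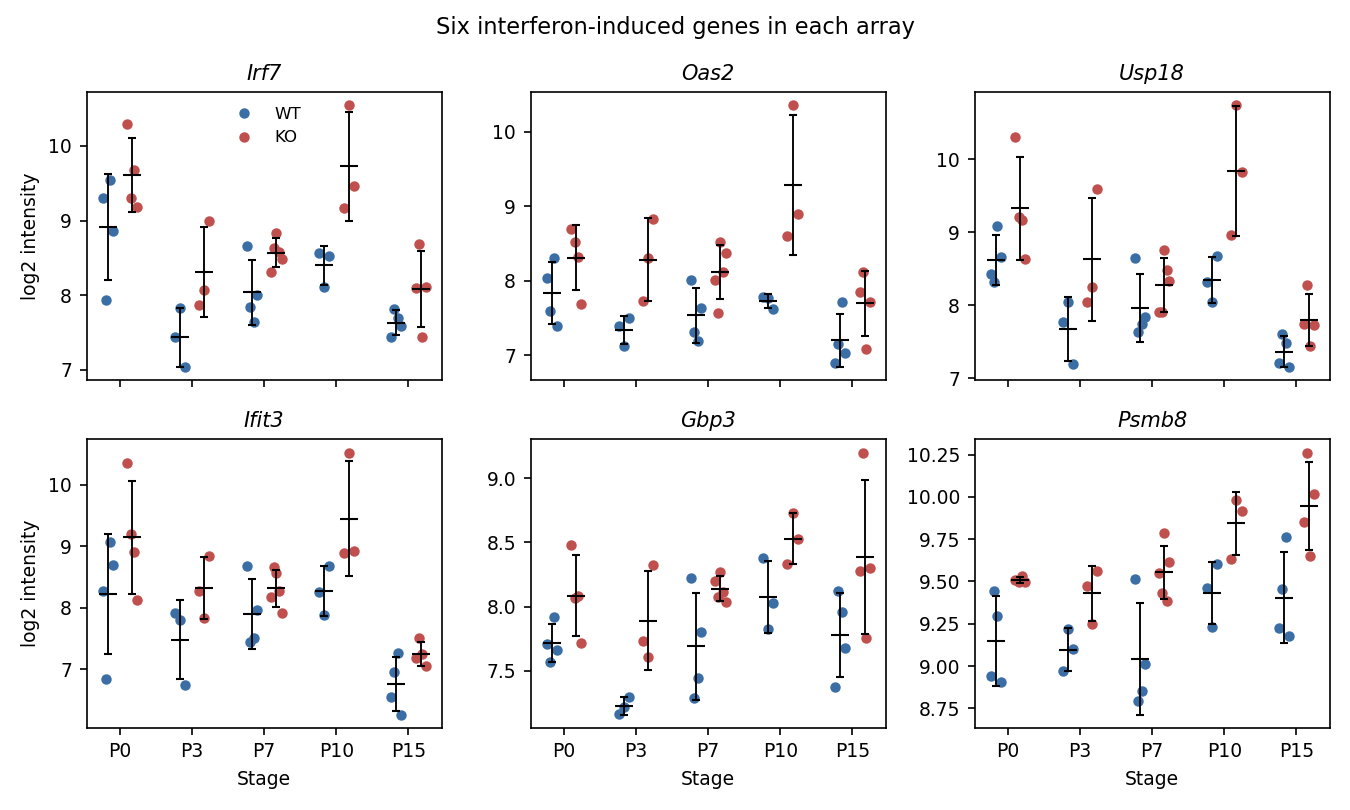
Log2 intensity (vertical axis) of Irf7, Oas2, Usp18, Ifit3, Gbp3 and Psmb8 in every array at each stage (horizontal axis), with WT points in blue, KO points in red, and black bars for the group mean and its SD. KO means lie above WT means at each of the 5 stages in all 6 panels, and the highest KO point at P10 is the same array, replicate 2, in each of them.

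Among the antiviral effectors that act at membranes and in nucleotide metabolism, 2 of 5 passed averaged over stages. Bst2, or tetherin, holds budding virus on the cell surface and was 0.30 (SE 0.06, adjusted p = 0.0126) higher. In KO the means were 8.39 ± 0.24 (P0), 7.99 ± 0.19 (P3), 8.21 ± 0.14 (P7), 8.24 ± 0.26 (P10) and 8.47 ± 0.21 (P15). Its WT means were 8.13 ± 0.26 (P0), 7.62 ± 0.03 (P3), 7.88 ± 0.17 (P7), 8.16 ± 0.27 (P10) and 8.03 ± 0.10 (P15). Its call was lost with the lymphocyte covariate, at 0.25 (adjusted p = 0.0768), and on leaving out the arrays in doubt, at 0.25 (adjusted p = 0.0871). Bst2 had its smallest difference at P10, 0.08, and its largest at P15, 0.44 (SE 0.14, adjusted p = 0.0311). Mx2, a dynamin-like GTPase, was 0.56 (SE 0.15, adjusted p = 0.0355) higher, and lay close to the filter level in most WT arrays. The Mx2 call held in 23 of 37 fits that left out 1 array, and was lost with the lymphocyte covariate, at 0.39 (adjusted p = 0.191), and on leaving out the arrays in doubt, at 0.41 (adjusted p = 0.198). The KO means of Mx2 were 5.54 ± 0.66 (P0), 5.53 ± 0.57 (P3), 5.18 ± 0.26 (P7), 6.51 ± 1.13 (P10) and 5.11 ± 0.25 (P15). Its WT means were 5.23 ± 0.30 (P0), 4.69 ± 0.27 (P3), 4.68 ± 0.32 (P7), 5.37 ± 0.11 (P10) and 5.08 ± 0.18 (P15). At P15 the means of Mx2 differed by 0.03. Its relative Mx1 did not pass averaged over stages at 0.57 (SE 0.18, adjusted p = 0.0713) but had the largest single difference of the list at P10, 1.95 (SE 0.43, adjusted p = 0.00229). Its WT arrays read near the filter level. At P10 the KO arrays read 5.95, 9.40 and 6.87, against 5.40, 5.18 and 5.80 in WT. That value was carried by replicates 2 and 3, the arrays with lymphocyte markers, and without the arrays in doubt the P10 difference of Mx1 was 0.49 with 1 KO array left. Rsad2 (viperin) and Cmpk2, neighbours in the genome that act in nucleotide metabolism, did not pass at 0.32 (SE 0.16, adjusted p = 0.299) and 0.36 (SE 0.10, adjusted p = 0.0527).

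The guanylate-binding proteins and immunity-related GTPases attack the vacuoles of intracellular pathogens and respond mainly to type II interferon. The 2 of 4 that could be measured were both higher in KO. Gbp3 was 0.51 (SE 0.10, adjusted p = 0.00887) higher, or 1.42-fold. KO readings at P0 were 8.48, 8.07, 8.08 and 7.71, and WT readings 7.71, 7.57, 7.92 and 7.66. KO readings at P3 were 7.73, 7.60 and 8.33, and WT readings 7.16, 7.22 and 7.30. KO readings at P7 were 8.20, 8.08, 8.27, 8.12 and 8.04, and WT readings 8.23, 7.29, 7.45 and 7.80. At P3 the groups were separate, and at P7 the 1 WT array within the KO range was replicate 1. KO readings at P10 were 8.33, 8.73 and 8.53, and WT readings 8.38, 7.82 and 8.03. KO readings at P15 were 8.27, 9.20, 7.75 and 8.30, and WT readings 7.37, 8.12, 7.95 and 7.68. The difference of Gbp3 was no larger at P10, 0.45, than at P3 or P15, 0.66 and 0.60, and 18 of 19 KO arrays were above the WT median of their stage. Irgm1 was 0.49 (SE 0.12, adjusted p = 0.0242) higher. Its KO means were 8.71 ± 0.35 (P0), 8.38 ± 0.35 (P3), 8.37 ± 0.12 (P7), 9.11 ± 0.61 (P10) and 8.60 ± 0.62 (P15), and its WT means 8.08 ± 0.15 (P0), 7.85 ± 0.17 (P3), 8.11 ± 0.41 (P7), 8.49 ± 0.28 (P10) and 8.20 ± 0.32 (P15). Gbp3 kept its call without the arrays in doubt (difference 0.55, adjusted p = 0.0264) and Irgm1 did not (difference 0.44, adjusted p = 0.119). With the lymphocyte covariate neither was called, at 0.44 (adjusted p = 0.0595) and 0.35 (adjusted p = 0.128).

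All 3 antigen processing genes were higher in KO. Psmb8 encodes LMP7, a catalytic subunit of the immunoproteasome, and had the smallest p of the list, at 0.43 (SE 0.07, adjusted p = 0.00157) or 1.35-fold. WT arrays at P0 read 8.94, 9.44, 9.30 and 8.90 and KO arrays 9.51, 9.50, 9.53 and 9.49. WT arrays at P3 read 8.97, 9.22 and 9.10 and KO arrays 9.48, 9.25 and 9.56. WT arrays at P7 read 9.52, 8.79, 8.85 and 9.01 and KO arrays 9.55, 9.43, 9.78, 9.39 and 9.62. The KO P0 arrays of Psmb8 agreed to within an SD of 0.02 and all lay above the WT arrays. WT arrays at P10 read 9.46, 9.23 and 9.60 and KO arrays 9.63, 9.98 and 9.92. WT arrays at P15 read 9.22, 9.45, 9.77 and 9.18 and KO arrays 9.85, 10.26, 9.65 and 10.02. Psmb8 was above the WT median of its stage in all 19 KO arrays, its differences ran only from 0.33 at P3 to 0.54 at P15, and it kept its call in all 37 fits that left out 1 array. Psmb9, which encodes the sister subunit LMP2, was 0.28 (SE 0.07, adjusted p = 0.026) higher, and Tap1, a subunit of the transporter that carries peptides into the endoplasmic reticulum, 0.45 (SE 0.10, adjusted p = 0.0121). Psmb9 and Tap1 lie head to head on chromosome 17, and their promoter windows in GRCm38.p6 share 275 bases, chr17:34187306-34187580.

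Of 6 other measured genes 3 passed. Rtp4, a chaperone of membrane receptors that also binds foreign RNA, was 0.73 (SE 0.14, adjusted p = 0.00415) higher in KO, or 1.66-fold. The P0 arrays read 9.68, 9.23, 9.02 and 8.68 in KO and 8.09, 8.08, 8.84 and 8.76 in WT. The P3 arrays read 8.90, 8.71 and 9.74 in KO and 8.31, 8.41 and 7.91 in WT. The P7 arrays read 8.76, 8.55, 8.94, 8.82 and 9.04 in KO and 9.10, 7.77, 7.57 and 8.10 in WT. The groups were separate at P3, and at P7 WT replicate 1 read above every KO array while the other WT arrays were below them all. The P10 arrays read 9.26, 10.22 and 9.19 in KO and 8.91, 8.73 and 8.96 in WT. The P15 arrays read 8.74, 9.15, 8.26 and 9.10 in KO and 7.66, 8.49, 8.42 and 7.94 in WT. The difference of Rtp4 ran only from 0.68 at P7 to 0.90 at P3, all 19 KO arrays were above the WT median of their stage, and without the arrays in doubt it was 0.81 (adjusted p = 0.003). Xaf1, a promoter of cell death, was 0.45 (SE 0.11, adjusted p = 0.0219) and Ifi35 0.31 (SE 0.06, adjusted p = 0.00552) higher. Ifi35 had KO means of 8.87 ± 0.13 (P0), 8.72 ± 0.07 (P3), 8.85 ± 0.25 (P7), 9.14 ± 0.24 (P10) and 8.97 ± 0.17 (P15) and WT means of 8.52 ± 0.27 (P0), 8.39 ± 0.15 (P3), 8.64 ± 0.17 (P7), 8.93 ± 0.03 (P10) and 8.54 ± 0.10 (P15). The call of Ifi35 was lost without the arrays in doubt, at 0.27 (adjusted p = 0.0881). Parp14, an ADP-ribosyltransferase, did not pass at 0.29 (SE 0.09, adjusted p = 0.0881), nor did Ifi27l2a at 0.20 (SE 0.11, adjusted p = 0.355). Lgals3bp, a secreted glycoprotein, had the smallest difference at 0.18 (SE 0.07, adjusted p = 0.171). Its KO means were 11.79 ± 0.29 (P0), 11.39 ± 0.25 (P3), 11.15 ± 0.26 (P7), 11.77 ± 0.06 (P10) and 10.82 ± 0.30 (P15), and its WT means 11.61 ± 0.33 (P0), 11.25 ± 0.19 (P3), 10.85 ± 0.09 (P7), 11.35 ± 0.08 (P10) and 10.95 ± 0.06 (P15).

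By single stage few or no members passed, except at P10. In nulliparous glands none of 31 passed (lowest adjusted p 0.0913, 14 with an unadjusted p under 0.05), against 1.27% of all genes called higher, while the median difference was 0.37 and all 31 were above 0. At P0 the KO minus WT difference was also 0.60 for the macrophage score, with 9 of 9 markers higher in the KO mean and none called, 0.51 for the natural killer and cytotoxic score, 0.45 for the epithelial score and -1.69 for the muscle score, and their part was not tested. In 6 members every KO P0 array was above every WT array, which held for 3.23% of all genes. At P3 none passed (lowest adjusted p 0.524, 12 with an unadjusted p under 0.05), against 0.00593% of all genes called higher, with a median of 0.45. The groups of 3 and 3 did not overlap in 15 members at P3, against 3.32% of all genes. At P7 none passed, and 0% of all genes were called higher. The median there was 0.28, 5 members had an unadjusted p under 0.05, and none was free of overlap, against 0.747% of all genes. Replicate 1 of WT P7, the array with lymphocyte markers, was the highest of its group in 30 of 31 members. The count of 0 at P0 became 1 without WT P0 replicate 2, KO P0 replicate 4 or KO P10 replicate 2.

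At P10 13 members were higher in KO, against 8.10% of all genes, with a median difference of 0.68. Their names were Irf7, Irf9, Dhx58, Oas1a, Oas1b, Oas2, Oas3, Oasl2, Usp18, Mx1, Mx2, Tap1 and Xaf1. In 17 members all KO P10 arrays were above all WT arrays, against 11.0% of all genes. KO replicate 2 was the highest of its group for all 31 members, with a mean of the 31 centred genes of 1.51, beside 0.65 in replicate 3 and 0.36 in replicate 1. The WT P10 arrays had means of 0.11, -0.13 and 0.14. Replicate 1, with a B and T lymphocyte score of -0.03 against -0.29 to -0.20 in WT P10, read above all 3 WT arrays in 19 of 31 members, and 23.9% of all genes did so in that array. Its other immune scores were not all low. Every KO P10 array had a natural killer and cytotoxic score of at least 0.46 and a neutrophil score of at least 0.53, where WT arrays reached 0.26 and 0.27. Their T lymphocyte scores were at least 0.27, against at most -0.05 in WT P10. The lowest B lymphocyte and plasmacytoid dendritic cell scores of KO P10, -0.37 and -0.16, lay within the WT P10 ranges. Without the arrays in doubt, which leaves replicate 1 alone in KO and takes its spread from the other groups, no member was called at P10, the median was 0.25 and 26 of 31 differences were above 0. With the lymphocyte covariate the median was 0.04, 22 of 31 were above 0 and none was called. Of all 16865 genes tested 0 were called at P10 with that covariate, where the main fit called 2905. Calls over all genes also fell without the arrays in doubt. Leaving out KO replicate 2 gave 2 calls, WT replicate 2 gave 6 and KO replicate 1 gave 21, and a fit of the P10 arrays alone gave 0. This last fit called 1 of all 16865 genes, so its 0 is not particular to the members. The 7 B lymphocyte and 8 T lymphocyte markers tested were all higher in KO P10, by medians of 3.39 and 2.39, as were all 6 neutrophil markers and 4 of 5 plasmacytoid dendritic cell markers. Their part in the P10 values was not tested beyond these fits.

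At P15 4 members were higher in KO, Oas1b, Bst2, Psmb8 and Ifi35, against 6.78% of all genes, with a median difference of 0.35. The groups did not overlap in 2 members, against 10.6% of all genes. KO minus WT at P15 was also 0.27 for the white adipocyte, 0.32 for the natural killer and cytotoxic and -0.24 for the macrophage score. Their part was not tested. The array labelled KO P15 replicate 3, in which Ptpn1 read as in WT, had the lowest value of its group in 23 of 31 members. It was above the WT median in 15 of 31 members, where KO replicates 1, 2 and 4 were above it in 28, 31 and 27. Without the arrays in doubt 8 members were called at P15 and the median was 0.43, with Oas1b at 0.90 (adjusted p = 0.00453) and Psmb8 at 0.64 (adjusted p = 0.00286). The 4 calls at P15 became 0 without KO replicate 2 or WT replicate 4, 1 without WT replicate 1 and 2 without KO replicate 1 or 4. 

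Whether the genotype difference varied between stages was tested by an F test, in which no member passed, against 18.0% of all genes, and 3 members (Oas1b, Mx1 and Oas3) had an unadjusted p under 0.05. A larger difference at P10 than at other stages was therefore not shown for any single member, although P10 held the largest of the 5 differences for 21 of 31. The count of 0 became 3 without KO P10 replicate 1, and 1 when any of KO P0 replicate 1, KO P3 replicates 1 and 3, KO P7 replicates 3 and 5, WT P15 replicate 3 and the array labelled KO P15 replicate 3 was left out.

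**Figure D3:**
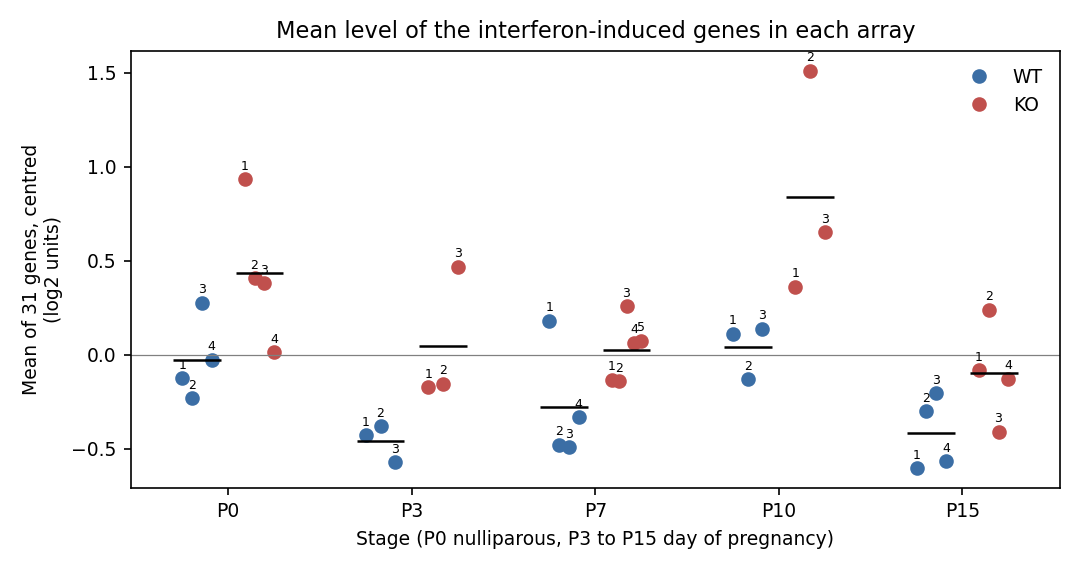
Mean over the 31 interferon-induced genes after subtracting from each its average log2 value in the 37 arrays (vertical axis), for every array by stage, WT in blue and KO in red, with replicate numbers above the points and bars for group means. The KO bar is above the WT bar at each of the 5 stages, the highest point is KO P10 replicate 2 at 1.51, and the array labelled KO P15 replicate 3, at -0.41, lies among the WT points.

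The members varied more within groups than most genes. The residual SD, which is the spread around group means over all 37 arrays, had a median of 0.35 for the members and 0.16 for all genes tested, and each of the 31 was above the latter. Ifit3 had the largest at 0.63 and Ifi35 the smallest at 0.18. For 26 of 31 members the KO minus WT difference averaged over stages was larger than this SD. Spread was widest in KO P10, with a median SD of 0.57 over members beside 0.16 over all genes, and 18 members had their largest group SD there, up to 1.78 for Mx1. The median SD of members was 0.37 in KO P0, 0.40 in KO P3, 0.21 in KO P7 and 0.30 in KO P15. In WT it was 0.26 (P0), 0.17 (P3), 0.34 (P7), 0.20 (P10) and 0.27 (P15). In several groups single arrays held most of the highest or of the lowest readings. KO P0 replicate 1 was the highest of its group in 29 of 31 members and replicate 4 the lowest in 26, and KO P3 replicate 3 was the highest in 29. None of these 3 arrays had a raised B and T lymphocyte score, which was -0.32 to -0.26 in the KO P0 arrays and -0.49 to -0.30 in the KO P3 arrays. Some other scores ranged more widely. The neutrophil score was -0.25 to 0.75 in KO P0, and the natural killer and cytotoxic score -0.17 to 0.41 in KO P3. The part of cell content in this spread was not tested.

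**Figure D4:**
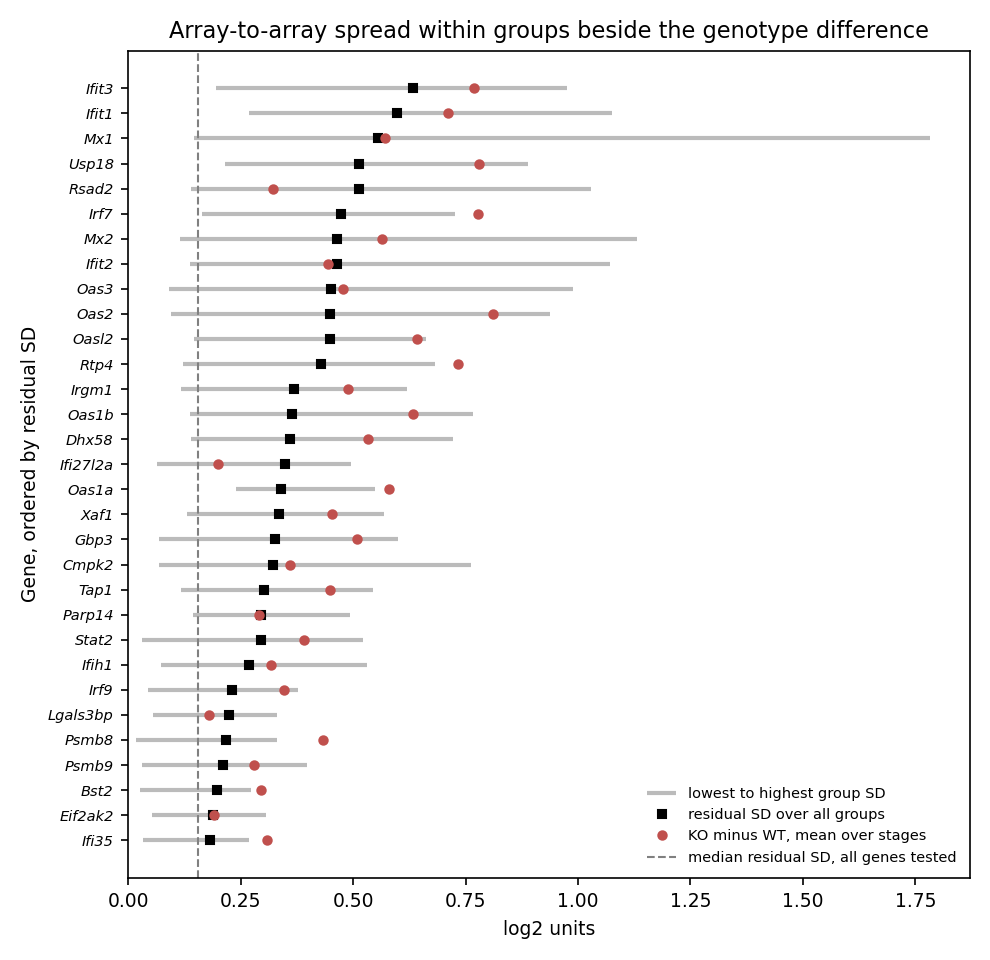
Residual SD (black square), range of the 10 group SDs (grey line) and KO minus WT averaged over stages (red circle) for each of the 31 genes, all in log2 units on the horizontal axis, with genes ordered by residual SD. All squares lie right of the dashed line, the median of all genes tested (0.16), and the grey line of Mx1 reaches 1.78.

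Part of the list was lower in late pregnancy than before it. Each stage was compared with P0 of the same genotype, so the 4 comparisons of a genotype share their P0 arrays. At P15 10 members (32.3%) were lower than at P0 in WT, near the 27.3% of all genes, and 12 (38.7%) in KO, against 21.8%. The 9 lower in both genotypes were Irf7, Dhx58, Oas1a, Oasl2, Usp18, Ifit1, Ifit3, Ifi27l2a and Lgals3bp. Ifi27l2a, of the Ifi27 family of small hydrophobic proteins, had the steepest course. It read 11.76, 11.65, 11.63 and 11.74 in WT at P0 and 8.92, 8.41, 8.94 and 8.18 at P15, a difference of -3.08 (SE 0.24, adjusted p = 1.48e-11). In KO it went from 12.14, 11.70, 11.80 and 11.97 to 9.57, 8.96, 9.05 and 8.50, a difference of -2.88 (SE 0.24, adjusted p = 6.88e-11). Irf7 was lower by P15 in each genotype, at -1.28 in WT and -1.53 in KO, and so was Usp18, at -1.26 and -1.53. Stat2 was called lower in WT alone and Oas3, Ifit2 and Rsad2 in KO alone, and a difference between genotypes in these courses was not shown by the F test.

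Some members went the other way at P15. In WT 2 members were higher than at P0, against 21.6% of all genes, and in KO 3 were, against 19.5%. Cmpk2 read 7.71, 7.53, 7.88 and 7.90 at P0 and 8.89, 9.03, 8.89 and 8.95 at P15 in WT, a rise of 1.19 (SE 0.22, adjusted p = 4.05e-05), and rose by 1.06 (SE 0.22, adjusted p = 0.000191) in KO. Tap1 rose by 0.73 (SE 0.20, adjusted p = 0.00392) in WT and 0.70 (SE 0.20, adjusted p = 0.00622) in KO, and Psmb8 rose by 0.43 (SE 0.15, adjusted p = 0.0191) in KO. Between P0 and P15 the white adipocyte score of WT glands went from 0.37 to -0.84 and the milk protein score from -1.12 to 1.55. Their part in these courses was not tested.

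The earlier stages showed fewer calls. At P3 5 members were lower than at P0 in WT (Irf7, Ifih1, Oas1a, Oasl2 and Bst2), against 6.50% of all genes, and 2 in KO (Irf7 and Oas3), against 11.0%. At P7 3 were lower in WT (Irf7, Ifi27l2a and Lgals3bp), against 13.8%, and 7 in KO (Irf7, Dhx58, Oas1a, Oas3, Oasl2, Usp18 and Lgals3bp), against 8.34%. At P10 in WT Ifi35 was higher, against 11.7% of all genes, and Ifi27l2a lower, against 9.71%. In KO at P10 7 were higher than at P0 (Oas1b, Oas2, Mx1, Mx2, Psmb9, Tap1 and Xaf1), against 14.4%, and Ifi27l2a was lower, against 16.3%. Irf7 was called lower than at P0 in 3 of the 4 pregnancy stages in each genotype, P10 being the exception. As shares of the 31 members, those lower at WT P3 (16.1%) and KO P7 (22.6%) and those higher at KO P10 (22.6%) were above the share of all genes, and the rest were below it.

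Single arrays moved several of these counts. In WT the 5 calls of P3 became 1 without WT P0 replicate 3, 2 without WT P0 replicate 4 or WT P3 replicate 1 or 3, and 3 without WT P0 replicate 1 or WT P3 replicate 2. The 3 calls of WT P7 became 1 without WT P0 replicate 1, 3 or 4 or WT P7 replicate 2 or 4. The 2 calls of WT P10 became 0 without WT P0 replicate 1 or 4 or WT P10 replicate 2 or 3, 1 without WT P0 replicate 3 or WT P10 replicate 1, and 4 without WT P0 replicate 2. In KO the 2 calls of P3 became 7 without KO P0 replicate 4 or KO P3 replicate 3, 6 without KO P10 replicate 2, and 4 without WT P7 replicate 1, KO P10 replicate 1 or the array labelled KO P15 replicate 3. The 7 of KO P7 became 2 without KO P0 replicate 1 and 4 without KO P7 replicate 1. The 8 of KO P10 became 0 without the arrays in doubt, where 1 KO P10 array is left and is assumed to vary like the other groups, 3 without KO P10 replicate 2, 4 without KO P0 replicate 4 and 13 without KO P10 replicate 1. The counts at P15 against P0 moved by less than 1.5 times in every such fit, from 9 to 14 in WT and from 13 to 18 in KO.

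Of the interferon, receptor, kinase, inhibitor, STAT and IRF genes outside the list, none tested was called averaged over stages. Of 10 interferon genes listed 8 were measured and 5 tested, and none of these was called. The other 3, Ifnb1, Ifna4 and Ifnk, failed the filter, and Ifnb1 stayed between 4.20 and 4.82. Ifnl2 (7.33 to 8.07) and Ifna5 (6.80 to 7.64) read the highest. Ifng, the type II interferon made by natural killer and T cells, had the smallest p of the ligands at 0.15 (SE 0.05, adjusted p = 0.111). None of the 6 receptor chains was called. Ifnlr1, a chain of the type III receptor, differed by 0.12 (SE 0.07, adjusted p = 0.361). Of 15 tested kinases, STATs, IRFs and inhibitors none was called, with a median of 0.12, and the smallest p was that of Irf1, a factor induced by type II interferon, at 0.25 (SE 0.08, adjusted p = 0.0647).

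Other interferon-induced genes outside the list gave calls in KO averaged over stages, and none of these lists had a member called lower. Of 14 tested genes of nucleic acid sensing 4 were higher, with a median of 0.21 over the 14, where 1.30% of all genes were called higher. The largest was Zbp1, a sensor of Z-form nucleic acid, at 0.70 (SE 0.14, adjusted p = 0.00887), followed by the RNA-editing enzyme Adar at 0.30 (SE 0.08, adjusted p = 0.0343) and the kinase Tbk1 at 0.20 (SE 0.05, adjusted p = 0.0352). Of 28 further type I interferon-induced genes 6 were higher, with a median of 0.23, among them Slfn8 at 0.64 (SE 0.13, adjusted p = 0.0102), Epsti1 at 0.56 (SE 0.14, adjusted p = 0.0297) and Slfn2 at 0.52 (SE 0.11, adjusted p = 0.0102). Of 20 genes of the type II response and antigen presentation 4 were higher, with a median of 0.23. They included Gbp9 at 0.43 (SE 0.10, adjusted p = 0.0258) and the class II chains H2-Ab1 at 0.30 (SE 0.08, adjusted p = 0.0435) and H2-Eb1 at 0.22 (SE 0.06, adjusted p = 0.0392). Over all genes the median was -0.01. By stage, at P10 7 of the 14, 16 of the 28 and 9 of the 20 were called higher, against 8.10% of all genes. Those counts include KO P10 replicates 2 and 3, the arrays with lymphocyte markers. At P3 and P7 none was called. At P0 0, 0 and 3 were higher, against 1.27%, and at P15 1, 1 and 2, against 6.78%. Values of these genes with the lymphocyte covariate or without the arrays in doubt are not given here.

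Markers of other cell types differed between the genotypes in part. The natural killer and cytotoxic score ranged from -0.70 to 0.26 in WT arrays and from -0.20 to 0.99 in KO arrays, and its KO mean was above its WT mean at 5 of 5 stages, by 0.32 at P15 to 0.85 at P10. The B and T lymphocyte score ranged from -0.64 to 1.03 in WT and from -0.49 to 3.77 in KO, and its KO mean was above its WT mean at 2 of 5 stages. At P0, P3 and P7 KO minus WT of that score was -0.07, -0.21 and -0.24, while that of the mean over the 31 interferon-induced genes was 0.46, 0.51 and 0.31. Macrophage markers had no called member averaged over stages, with scores of -0.86 to 0.54 in WT and -1.25 to 0.83 in KO, although 9 of 9 were higher in the KO means at P0 and 0 of 9 at P3. Scores of plasmacytoid dendritic cells, which make type I interferon, were -0.48 to 0.41 in WT and -0.51 to 1.82 in KO. Averaged over stages 4 of their 5 markers were above 0 and none was called higher. Siglech, which marks them, differed by 0.16 (SE 0.12, adjusted p = 0.547). Tcf4, a transcription factor of these cells, was called lower at -0.20 (SE 0.04, adjusted p = 0.00827). Tcf4 read 9.73 to 10.78 over all arrays, beside 5.96 to 8.63 for Siglech, and whether it followed these cells was not tested. Of 5 plasma cell markers 2 and of 6 neutrophil markers 1 were called higher in KO averaged over stages. In that mean no marker of epithelium, white adipocytes, milk proteins or skeletal muscle was called, and of 5 endothelial markers 1 was called lower. At P15 3 of 6 white adipocyte markers were called higher, against 6.78% of all genes. At P10 1 epithelial, 1 white adipocyte and 3 endothelial markers were called lower, as were 1539 of all 16865 genes tested. The part of any of these cell types in the interferon-induced difference was not tested, beyond the fits with lymphocyte and muscle scores.

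**Figure D5:**
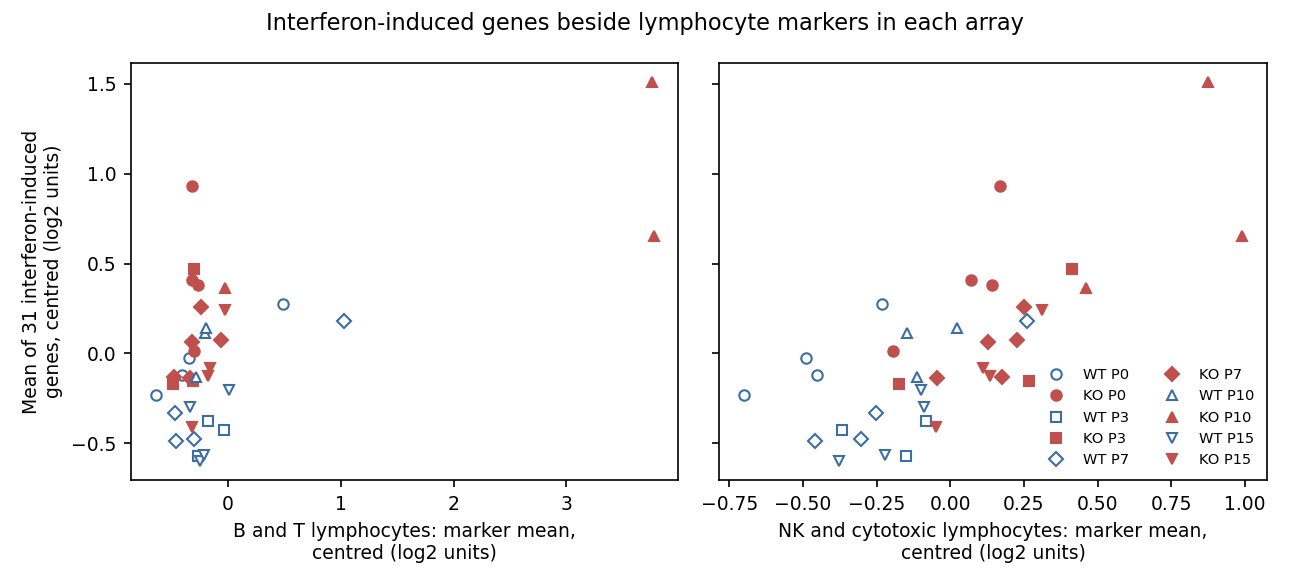
Mean of the 31 centred interferon-induced genes in each array (vertical axis, log2 units) beside the B and T lymphocyte score (left) and the natural killer and cytotoxic lymphocyte score (right), with open blue symbols for WT, filled red for KO and shapes for stages. KO P10 replicates 2 and 3 stand alone at the right of the left panel, at 3.76 and 3.77, and in the right panel 6 of 19 KO points lie right of every WT point.

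The promoter letters did not separate members by their genotype difference. Of 22 measured members with a RefSeq promoter window 11 held an ISRE match, and 8 of these 11 were called averaged over stages, with a median difference of 0.48. Of the 11 without a match 8 were also called, with a median of 0.43. Irf7, Irf9, Psmb8 and Tap1 were called without these letters in the window, which says nothing of elements written otherwise or lying elsewhere.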

How the data were processed

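Per the labels' protocols, RNA of mammary glands was converted to labelled sense-strand cDNA and hybridised to Affymetrix whole-transcript arrays. The deposited table holds 1 log2 value for each of 34760 probe sets and 37 arrays, made by the authors with affy per the submitters' processing notes. How background correction, summary and scaling were done is not given in the sources used. Array medians ran from 6.52 to 6.79, and the number of arrays in a group, 3 to 5, limits the precision.

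A gene was read from the probe set annotated to its symbol alone, and from the brightest where there were several. Of the probe sets 21640 had 1 symbol, 1321 several and 11799 none. A gene was tested where at least 3 arrays passed the 25th percentile of the table (4.96), which left out 3072 genes. A linear model with a mean for each group was fitted to all 37 arrays with lmFit and eBayes of limma 3.58.1 in R 4.3.3. Contrasts were KO minus WT at each stage, their unweighted mean, an F test for unequal differences, and each stage minus P0 within a genotype. A gene was called at a two-sided p under 0.05 after Benjamini-Hochberg adjustment over all 16865 genes tested in that contrast. The fit was tested on simulated data with known changes.

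The list of 35 genes, the pathway and marker lists and the tests were chosen with earlier results of these data known. Values in every array or group are given for the genes with the smallest p in each role and for those with the largest and smallest difference; Mx1, Ifi27l2a and Cmpk2 were added after their values were seen. Scores are means of log2 values centred on each gene. Same-numbered replicates were checked for pairing: over 18 such pairs the correlation of their deviations ran from -0.52 to 0.38, and 9 exceeded 0.1, so the numbers were not taken to pair samples. Alternatives were no filter, the mean of a gene's probe sets, quantile normalization, median centring, a trended and robust prior, array weights, a lymphocyte covariate, a replicate block, a fit of the compared groups alone and each array left out. Leaving out the 7 arrays in doubt, chosen by a score over 1 above the median of arrays or by Ptpn1, and lymphocyte and muscle covariates together were added after seeing the data.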

Additional observations from a re-analysis of the deposited data

Results flagged for a closer look

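Of 96 sets of 4 or 5 arrays examined, 5 held an array far from the others of its group. The sets were those of the 15 genes chosen by the rule and of the mean of the 31 genes. Chance gives about 1 in 20, so 5 of 96 is close to the chance rate. Oas1b in WT P0 replicate 1 read 6.15, below 6.41 to 6.43 in the other arrays of that group. Lgals3bp in WT P0 replicate 2 read 11.12, below 11.74 to 11.84 in the others. Eif2ak2 read 8.87 in KO P0 replicate 1, above 8.24 to 8.27 in the others, and 8.46 in WT P7 replicate 1, the array with lymphocyte markers, above 8.13 to 8.18. Irgm1 in KO P15 replicate 2 read 9.52, above 8.21 to 8.40.

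The 4 probe sets that the tests did not use carry the symbol of a listed gene beside that of a relative, so their values belong to no single gene. KO minus WT averaged over stages was 0.83 for the probe set of Oas1a and Oas1g, 0.65 for that of Irgm2 and Igtp, 0.28 for that of Isg15 and Gm9706 and 0.21 for that of Gbp2 and Gbp2b. Each was above 0 at 5 of 5 stages, and none was tested.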

How the results depend on the processing

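Over 15 counts of called members, 133 of 163 planned or added alternatives and 506 of 555 fits that left out 1 array stayed within 1.5 times the count reported. Of 1457 values of single members averaged over stages under such alternatives none changed sign, 121 lost the call, 18 gained it and 1318 kept their side of the threshold. Averaged over stages the 22 calls became 7 with the lymphocyte covariate and 7 with both covariates. There were 11 without the arrays in doubt and 28 with array weights, and 14 to 27 with 1 array left out. At P10 the 13 calls became 22 with array weights and 0 with the lymphocyte covariate, with both covariates, without the arrays in doubt and in a fit of the P10 arrays alone, and ran from 2 to 21. At P15 the 4 calls became 2 with median centring, 7 with array weights and 8 without the arrays in doubt (0 to 6). At P0 there were 1 with array weights and 2 with the lymphocyte covariate (0 to 1), and the F test gave 5 with array weights (0 to 3). Against P0, WT P3 gave 8 with array weights and 2 in a fit of the groups alone (1 to 7). WT P7 gave 5 with median centring or the lymphocyte covariate and 11 with array weights (1 to 3). WT P10 gave 1 after quantile normalization, median centring or in the groups alone and 8 with array weights (0 to 4). KO P3 gave 11 with array weights, 5 with the lymphocyte covariate and 0 in the groups alone (2 to 7). KO P7 ran from 2 to 9. KO P10 gave 0 with either covariate fit or without the arrays in doubt and 3 in the groups alone (3 to 13). With a replicate block the mean over stages gave 17 calls, P10 12, P15 4 and P0, P3 and P7 0. Calls over all 16865 genes tested moved as well. With the lymphocyte covariate they went from 410 to 62 averaged over stages and from 2905 to 0 at P10. With array weights they rose to 3091 and 7340, and a fit of the P10 arrays alone gave 1. The causes of these shifts were not tested. Fits of the groups alone are not defined for the mean over stages. Mx1 and Mx2 read near the filter level in WT, which limits their differences.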
